A study of Homo sapiens with 48 samples.

Results

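The 40 genes described here act in mitosis and cytokinesis. They were chosen by name, from a list of gene symbols, with earlier results of these data known. The symbols were matched to the Ensembl identifiers of the count tables. All 40 were found among the 14685 genes tested, and all 40 passed the filter on low counts. The material was HEK293T, a human embryonic kidney cell line (wild-type genotype per the labels), transiently transfected with a plasmid for NCBP1 fused to Halo, so that every arm, controls included, carried the fusion protein. NCBP1 is the larger subunit of the nuclear cap-binding complex, and Halo is a protein tag that binds chloroalkane ligands covalently. In the T-REX arm, Halo was loaded with a photocaged form of the lipid-derived electrophile HNE, and light then released HNE next to NCBP1. The control arms are named light alone, probe alone (the photocaged probe without light) and DMSO (vehicle without light). The methods define light alone among the T-REX controls as probe together with light, while the labels do not say whether this arm received the probe. RNA was taken at 3, 6 and 12 h from 4 replicates of each arm, 48 libraries in all, each of a whole culture in which transfected and untransfected cells could not be told apart.

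Total counts ran from 23952455 to 37099535 per library (median 29405598.5), and NCBP1 itself, plasmid and endogenous gene together, stood at 30800 to 92200 CPM, which are counts scaled to the library total. Of the neurofilament, cytoskeletal and renal markers used to check the cell line, NEFL, NEFM, INA and VIM had medians of 58.0, 31.1, 65.4 and 525 CPM, KRT8, KRT18 and LHX1 of 7.78, 10.1 and 2.15 CPM, and PAX2 was not among the genes listed. Of 6 markers of other cell types, only the fibroblast gene COL1A1 was listed (median 3.64 CPM).

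Cells enter mitosis when cyclin B and CDK1 become active together, a step that Polo-like and Aurora kinases reinforce. Condensins and topoisomerase II compact and untangle chromosomes, kinesins build the spindle, and the spindle checkpoint holds back the anaphase-promoting complex (APC) until every chromosome is attached. The APC then marks cyclin B and securin for destruction, and anillin, ECT2 and kinesins of the midzone drive cytokinesis. Most of these genes are transcribed in G2 and M under MYBL2 (B-MYB), FOXM1 and NF-Y, and repressed at other times through a promoter motif named CHR, the cell cycle genes homology region.

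Under T-REX the members lay slightly below probe alone and DMSO at 3 h, with a median log2 fold change of -0.13 against each. Against light alone the median was -0.04 and 0 members were called. FBXO5 was called lower than DMSO at all 3 times. It was called lower than probe alone at 6 and 12 h, and lower than light alone at 12 h. FBXO5 (EMI1, an inhibitor of the APC) was lower than DMSO by 14.3%, 19.5% and 20.3% at 3, 6 and 12 h. KIF20A, a midzone kinesin needed for cytokinesis, was lower than probe alone and DMSO at 3 h and lower than light alone and DMSO at 12 h. No member was higher under T-REX than any control at any time by edgeR's quasi-likelihood test (adjusted p of at most 0.05, Benjamini-Hochberg over all 14685 genes). In these bulk samples, fewer cells in mitosis and less mitotic RNA per cell cannot be told apart.

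**Figure D1:**
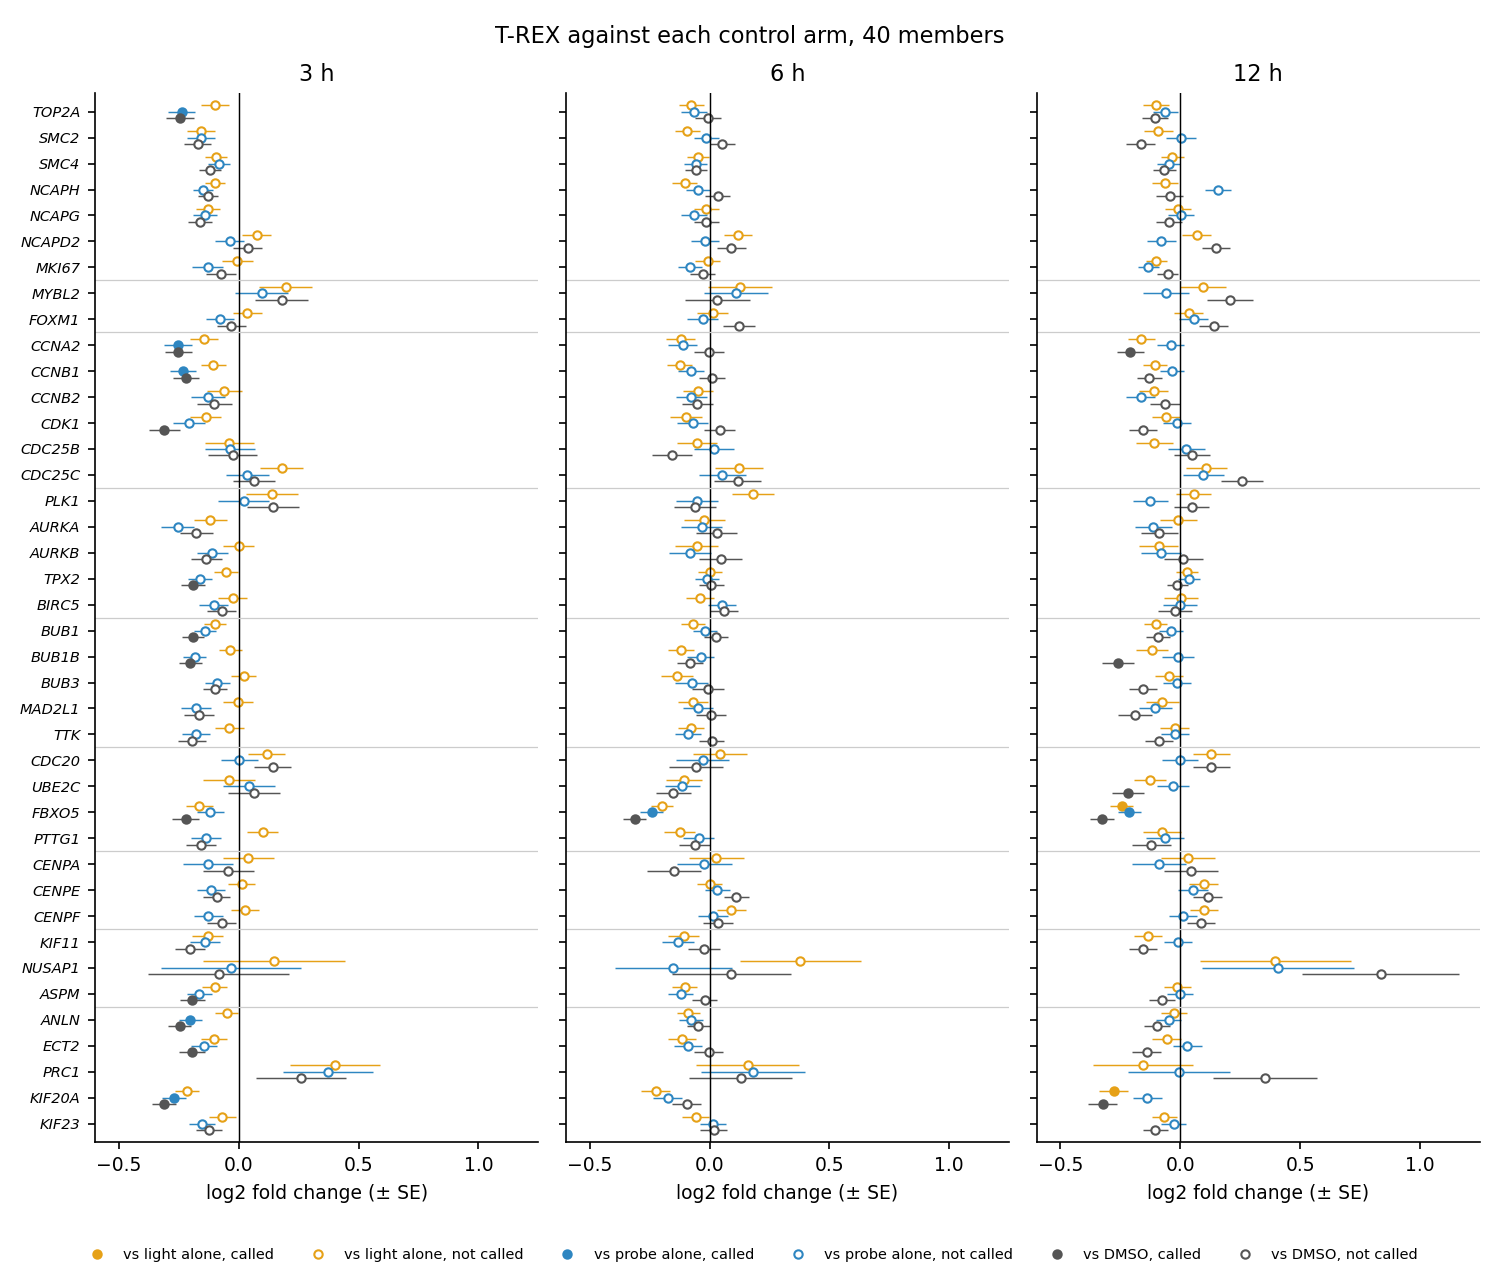
log2 fold change of T-REX against light alone, probe alone and DMSO for the 40 members (rows, grouped by role between grey lines) at 3, 6 and 12 h. Bars are SE of the fit, filled points passed the test and open points did not; filled points lie left of 0 in every panel, with 12 of 40 members called against DMSO at 3 h and FBXO5 called at 6 and 12 h.

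FBXO5 was the only member called lower against 2 or more controls at both 6 h and 12 h. At 6 h its level in the T-REX libraries was 114, 110, 109 and 106 CPM, against 127, 125, 121 and 130 CPM with light alone, 132, 126, 132 and 128 CPM with probe alone and 137, 139, 128 and 139 CPM with DMSO. All 4 T-REX libraries lay below all 12 control libraries. The log2 fold change was -0.20 ± 0.05 (SE of the fit, as for all log2 fold changes below) against light alone, where adjusted p was 0.0790. It was -0.24 ± 0.05 against probe alone (adjusted p = 0.0335), and for DMSO it was -0.31 ± 0.05 (adjusted p = 0.00148). At 12 h the T-REX libraries held 95.7, 101, 99.8 and 103 CPM, light alone 115, 120, 117.2 and 123 CPM, probe alone 111, 113, 117.3 and 121 CPM, and DMSO 118, 133, 127 and 124 CPM. The groups again did not overlap. The log2 fold change at 12 h was -0.25 ± 0.05 against light alone, where adjusted p was 0.00743. It was -0.21 ± 0.05 against probe alone (adjusted p = 0.0388), and for DMSO it was -0.33 ± 0.05 (adjusted p = 0.000215). At 3 h the same gene stood at 126, 116, 132 and 114 CPM under T-REX and overlapped light alone (128 to 141 CPM) and probe alone (122 to 141 CPM), but not DMSO (138 to 148 CPM), and only the comparison with DMSO passed (-0.22 ± 0.06, adjusted p = 0.0225). The comparison with DMSO passed at 6 and 12 h whichever 1 of the 16 libraries was left out. That with probe alone passed in 5 of 16 such fits at 6 h and in 4 of 16 at 12 h.

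The promoters of FBXO5 were searched for letters of the NF-Y and CHR motifs, and are printed for that reason. Whether such letters act on FBXO5 in these cells was not tested. RefSeq (GRCh38.p14) gives 2 transcription starts. The sequences below are the 120 bases before each start, 5′ to 3′ on the minus strand of chromosome 6. Capitals mark CCAAT (the NF-Y box, read as ATTGG on the other strand) and the CHR letters searched, which were TTTGAA, the variant with TTTAAA, the variant with CTTGAA and the variant with TTCGAA, on either strand, overlapping matches counted each.
FBXO5, downstream start, chr6:152983042-152983161: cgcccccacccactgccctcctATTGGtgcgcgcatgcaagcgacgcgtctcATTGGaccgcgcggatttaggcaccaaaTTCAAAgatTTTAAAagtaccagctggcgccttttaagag
FBXO5, upstream start, chr6:152983580-152983699: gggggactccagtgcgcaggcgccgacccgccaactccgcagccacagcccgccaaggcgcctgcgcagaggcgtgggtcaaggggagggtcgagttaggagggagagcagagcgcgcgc
The downstream start had CCAAT boxes 98 and 68 bases before it and CHR letters 40 and 31 bases before it, and the window of the upstream start had none of these letters. Counts per gene do not tell which start was used in these cells.

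KIF20A (MKLP2) carries the Aurora B complex to the spindle midzone. At 3 h it stood at 90.0, 88.0, 90.2 and 85.2 CPM under T-REX. Light alone held 109, 105, 100 and 96.0 CPM, probe alone 113, 113, 104 and 102 CPM, and DMSO 109, 108, 113 and 110 CPM. Every T-REX library was below every control library. The fold change passed against probe alone (-0.27 ± 0.05, adjusted p = 0.0133) and DMSO (-0.31 ± 0.05, adjusted p = 0.00136), and not against light alone (-0.22 ± 0.05, adjusted p = 0.0667). At 6 h the gene was higher in all arms, with 109, 118, 122 and 105 CPM under T-REX against 115 to 142 CPM over the controls, and no comparison passed (log2 fold change of -0.10, -0.18 and -0.23 against DMSO, probe alone and light alone). At 12 h T-REX held 86.8, 84.9, 87.7 and 97.1 CPM, below light alone (102 to 112 CPM) and DMSO (101 to 124 CPM) and overlapping probe alone (94.9 to 101 CPM). It passed against light alone (-0.28 ± 0.06, adjusted p = 0.0132) and DMSO (-0.32 ± 0.06, adjusted p = 0.00129), and not against probe alone (-0.14 ± 0.06, adjusted p = 0.384). The comparisons with DMSO at 3 and 12 h passed in all 16 fits that left out 1 library. The comparison with probe alone at 3 h passed in 13 of 16 and was lost without replicate 4 of T-REX (-0.26, adjusted p = 0.0549).

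**Figure D2:**
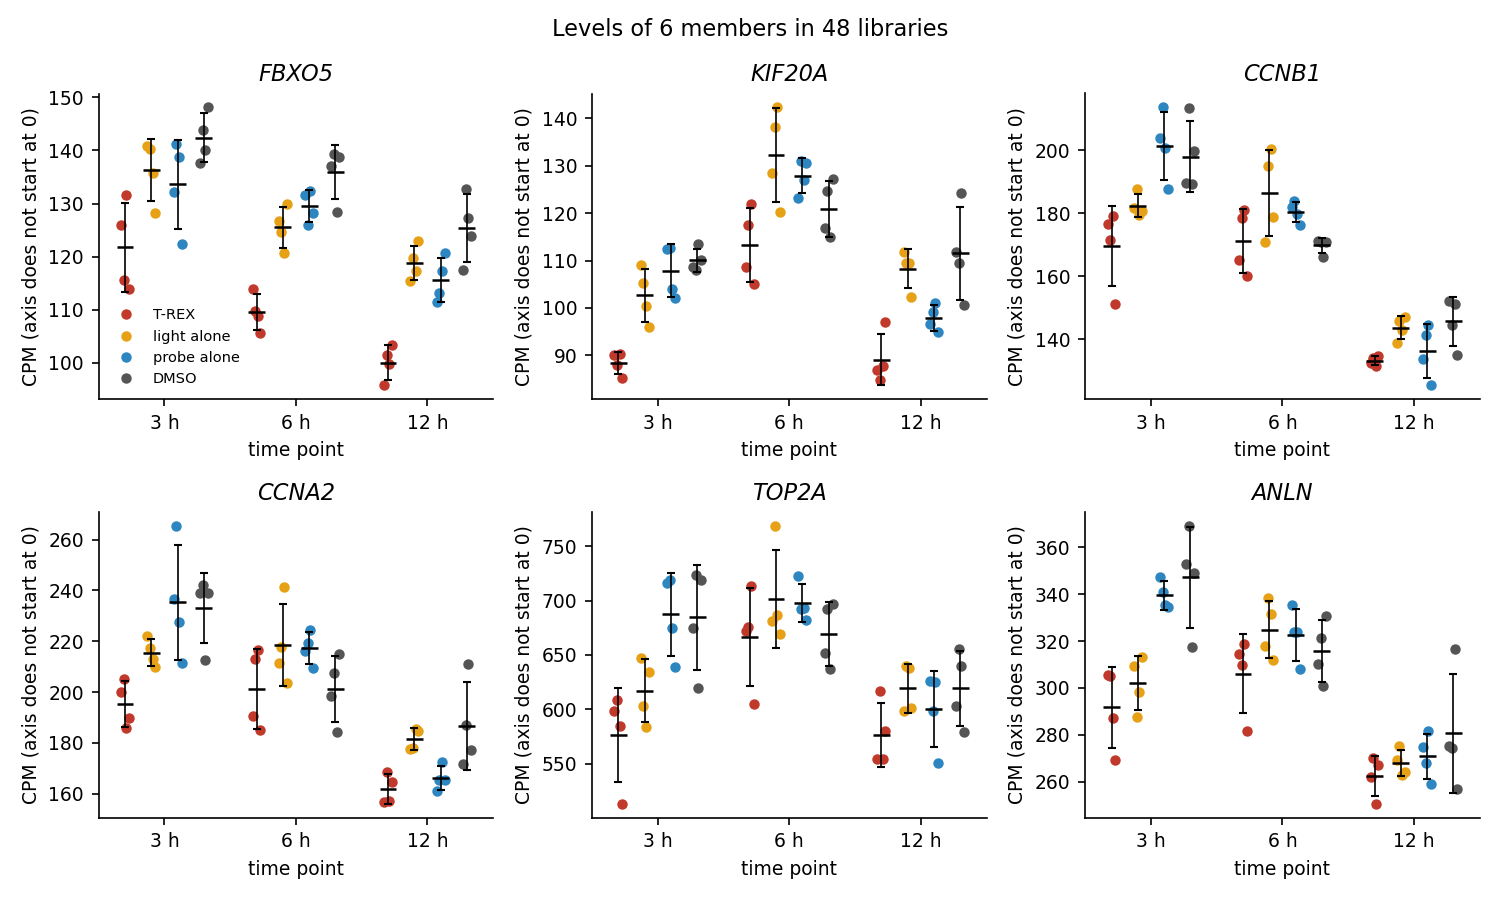
CPM (vertical axes, not starting at 0) of the 6 members called lower against 2 or more controls at some time, by arm and time point, with 1 point per library, the mean as a line and the SD as a bar. The T-REX libraries of FBXO5 at 6 and 12 h and of KIF20A at 3 h lie below all control libraries of their time point.

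At 3 h, 12 members were called against DMSO, 5 against probe alone and 0 against light alone, all of them lower. Over all genes, 4.54%, 0.81% and 0.116% were called lower in these comparisons. The median log2 fold change of the 40 members was -0.13, -0.13 and -0.04 in the same order, and that of all genes 0.03, 0.02 and 0.00. Against light alone, 10 members had an unadjusted p under 0.05 in edgeR, as had 2174 of all 14685 genes, and DESeq2 called 1 member. The 12 members called against DMSO were spread over the roles. They were 3 of 6 in the cyclin and CDK engine (CCNA2, CCNB1 and CDK1), 3 of 5 in cytokinesis (ANLN, ECT2 and KIF20A), 2 of 5 in the spindle checkpoint (BUB1 and BUB1B), TOP2A of 7 in chromosome structure, TPX2 of 5 mitotic kinases and partners, FBXO5 of 4 APC genes and ASPM of 3 spindle genes. None of the 3 kinetochore genes and neither MYBL2 nor FOXM1 was called. Called lower against both probe alone and DMSO were 5 of 40 members, TOP2A, CCNA2, CCNB1, ANLN and KIF20A, while 0.769% of all genes were called lower against 2 or more controls.

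TOP2A encodes the topoisomerase that untangles sister chromosomes. At 3 h its level was 599, 609, 585 and 513 CPM under T-REX, 647, 603, 583 and 634 CPM with light alone, 716, 719, 675 and 639 CPM with probe alone and 675, 724, 620 and 719 CPM with DMSO. T-REX lay wholly below probe alone and DMSO and overlapped light alone. The log2 fold change was -0.24 ± 0.06 in both cases (adjusted p = 0.0467 and 0.0160), and it was -0.10 ± 0.06 against light alone (adjusted p = 0.443). CCNA2, the cyclin of S phase and G2, stood at 200, 205, 186 and 190 CPM under T-REX, below all libraries of light alone (210 to 222 CPM), probe alone (212 to 265 CPM) and DMSO (213 to 242 CPM). Its fold change was -0.25 ± 0.06 against both probe alone (adjusted p = 0.0398) and DMSO (adjusted p = 0.0138), and -0.14 ± 0.06 against light alone (adjusted p = 0.237). CCNB1, the cyclin that activates CDK1 at mitotic entry, stood at 177, 172, 179 and 151 CPM under T-REX, with 180 to 188 CPM with light alone, 188 to 214 CPM with probe alone and 189 to 213 CPM with DMSO. It was lower by 14.9% against probe alone and 14.1% against DMSO (adjusted p = 0.0433 and 0.0210). ANLN, the scaffold of the contractile ring, held 306, 305, 287 and 269 CPM under T-REX, and had log2 fold changes of -0.20 ± 0.05 against probe alone and -0.25 ± 0.05 against DMSO (adjusted p = 0.0444 and 0.00553). Light alone, at 288 to 313 CPM, overlapped it.

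CDK1, the kinase that drives mitotic entry, was called against DMSO alone at 3 h (-0.31 ± 0.07, adjusted p = 0.00829). Its libraries were 184, 189, 164 and 171 CPM under T-REX and 223, 231, 198 and 229 CPM with DMSO, with no overlap, while light alone (178 to 205 CPM) overlapped T-REX. PLK1, AURKA, KIF11, CENPE and MYBL2 passed no comparison with T-REX at 3 h. PLK1, the Polo-like kinase, was at 86.4, 98.9, 139 and 108 CPM under T-REX, a spread (SD of 22.7 CPM) above that of any control arm (SD of 3.12 to 7.21 CPM). AURKA, the Aurora kinase of the spindle poles, had log2 fold changes of -0.18, -0.26 and -0.12 against DMSO, probe alone and light alone, with adjusted p of 0.132, 0.0684 and 0.447. KIF11, the kinesin that separates spindle poles, had -0.20, -0.14 and -0.13 in the same order (adjusted p of 0.0599, 0.245 and 0.347), and CENPE, a kinetochore kinesin, -0.09, -0.12 and 0.01. BUB1, a checkpoint kinase, passed against DMSO (-0.19 ± 0.05, adjusted p = 0.0186). MYBL2, a regulator of this gene class, also spread widely under T-REX, at 92.9, 114, 152 and 109 CPM against 98.1 to 117.3 CPM over the controls, and had log2 fold changes of 0.18, 0.10 and 0.20 that did not pass (adjusted p of 0.369, 0.666 and 0.442). Replicate 3 of T-REX, singled out after its values were seen, was the highest of its arm for PLK1, MYBL2, CDC20 (82.3 CPM) and UBE2C (121 CPM).

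Single libraries changed the 3 h counts. Replicate 4 of T-REX held the lowest summed level of the 40 members of any library at 3 h, 7809 CPM, against 8696, 8792 and 8670 CPM in the other replicates of its arm, and it also had the lowest total count of all 48 libraries. Without it, 0 members instead of 5 were called against 2 or more controls, 0 instead of 5 against probe alone and 4 instead of 12 against DMSO, while the median log2 fold change of the members was -0.12, -0.10 and -0.01 against DMSO, probe alone and light alone. The count against DMSO was 6, 3 and 5 without replicates 1, 2 and 4 of DMSO. The count against probe alone was 0 without replicate 1 or 2 of probe alone and 1 without its replicate 3. It was 9 without its replicate 4 and 8 without replicate 3 of T-REX. It was 1 without replicate 2 of T-REX, replicate 1 or 2 of DMSO or replicate 1 of light alone, 2 without replicate 4 of light alone and 3 without replicate 4 of DMSO. The count against 2 or more controls was also 0 without replicate 1 or 2 of probe alone, and 8 without its replicate 4. It was 1 without replicate 3 of probe alone, replicate 2 of T-REX, replicate 1 or 2 of DMSO or replicate 1 of light alone, and 2 without replicate 4 of DMSO or of light alone. Against light alone, 1 member was called without replicate 3 of T-REX or replicate 4 of light alone. In fits of only the 2 arms compared, 0 members were called against probe alone and 3 against DMSO. With the 2 factors of unwanted variation (RUV) that the authors deposited for each library as covariates, 25 members were called against DMSO, 22 against probe alone and 8 against light alone. The share of all genes called in fits with these covariates is not given here at any time point. Such counts therefore cannot be read as particular to the members.

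Among the controls at 3 h, light alone lay lowest, although no member passed. With light alone, 36 of 40 members lay below DMSO and 35 of 40 below probe alone, with a median log2 fold change of -0.09 and -0.11, while over all genes 45.7% and 45.6% lay below 0. By edgeR 0 members were called in either comparison. An unadjusted p under 0.05 was found for 11 members in each, and for 1143 and 2060 of all 14685 genes. DESeq2 called 0 and 1 members. With the RUV factors as covariates, edgeR called 7 and 13. Without replicate 3 of T-REX, edgeR called 1 against probe alone. Over all genes 0.00681% and 0.232% were called. Between probe alone and DMSO no difference was detected by edgeR, with 0 members called, 0 at an unadjusted p under 0.05, 0 by DESeq2, a median of 0.00 and 0.00681% of all genes called. PTTG1 (securin, the inhibitor of separase) was at its lowest with light alone rather than T-REX, with a log2 difference of -0.26 from DMSO (adjusted p = 0.290). The summed level of the 40 members was 8598 to 9002 CPM with light alone, which overlapped T-REX (7809 to 8792 CPM), probe alone (8950 to 9758 CPM) and DMSO (8865 to 9751 CPM). T-REX and light alone are the arms that received light, and the part of light in these values was not tested.

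**Figure D3:**
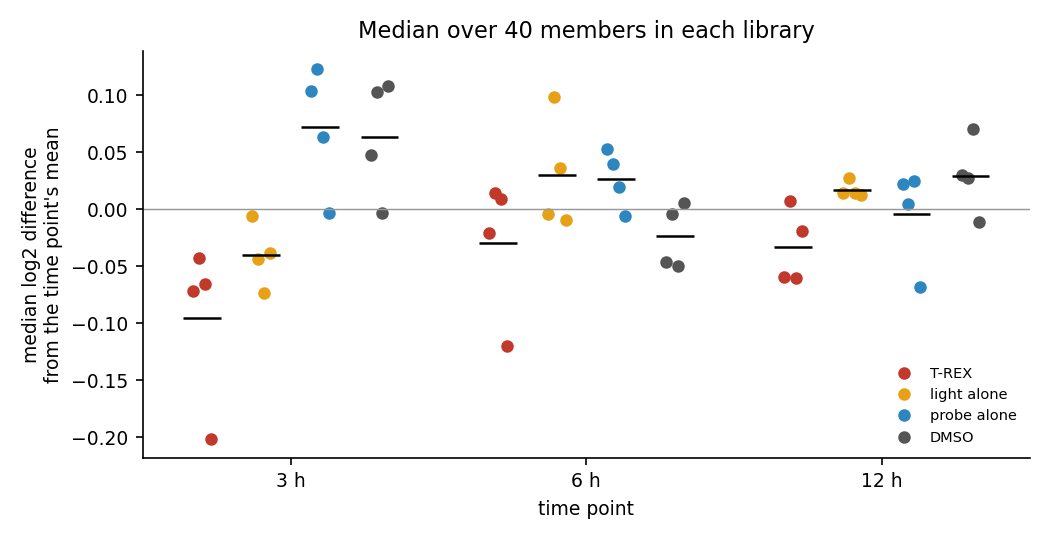
Median over the 40 members of the log2 difference from the mean of the 16 libraries of a time point (vertical axis), 1 point per library, with arm means as lines. At 3 h the T-REX libraries (-0.20 to -0.04) and light alone (-0.07 to -0.01) lie below 0, while probe alone and DMSO reach 0.12 and 0.11; at 6 h all arms overlap T-REX, and at 12 h T-REX overlaps probe alone and DMSO but lies below light alone.

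At 6 h the members as a group lay closer to the controls. The median log2 fold change of T-REX was 0.00, -0.05 and -0.06 against DMSO, probe alone and light alone. Replicate 4 of T-REX at 6 h held the lowest summed level of the 40 members of any library at 6 h, 8116 CPM. Without it these medians were 0.04, -0.03 and -0.03. In the fit of all 16 libraries, FBXO5 alone was called against probe alone and DMSO, where 0.0885% and 0.238% of all genes were called lower. Against light alone 0 members passed in edgeR (1 without replicate 3 of DMSO or replicate 4 of light alone), with 5 at an unadjusted p under 0.05, 2 called by DESeq2 and 0.0953% of all genes called lower. Called against 2 or more controls was 1 member of 40, and 0.0817% of all genes. That single count fell to 0 without any 1 of 11 libraries, which were the 4 of T-REX, the 4 of probe alone, replicates 1 and 2 of DMSO and replicate 1 of light alone. TOP2A, CCNA2, CCNB1 and ANLN had log2 fold changes of -0.01, 0.00, 0.01 and -0.05 against DMSO at 6 h. UBE2C had -0.15, -0.11 and -0.11 against DMSO, probe alone and light alone, and none of these passed. The members with the highest mean over the controls at 6 h, PRC1, NUSAP1 and CDC25C, had 0.13, 0.09 and 0.12 against DMSO and did not pass. In the comparisons between controls at 6 h, 0 members were called by edgeR, with 8, 2 and 3 members at an unadjusted p under 0.05 for light alone against DMSO, probe alone against DMSO and light alone against probe alone, and 0 by DESeq2 in each. With the RUV factors as covariates, 9, 1 and 2 were called in these comparisons, and 3, 4 and 9 for T-REX against DMSO, probe alone and light alone. Over all genes 0.00681%, 0.0272% and 0.0613% were called by edgeR without these covariates. How many of all genes had an unadjusted p under 0.05 at 6 h is not given here. The counts of members at that p therefore cannot be read as particular to them.

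At 12 h, FBXO5 and KIF20A were called against light alone, FBXO5 against probe alone, and FBXO5, KIF20A, CCNA2, BUB1B and UBE2C against DMSO. Over all genes 0.79%, 0.504% and 6.79% were called lower. The members' median was -0.06, -0.02 and -0.07 for light alone, probe alone and DMSO as reference. The DMSO arm also differed from probe alone at 12 h (5.11% of all genes called), where BUB1B and NCAPH were lower with probe alone and NCAPD2 was higher. This count of 3 was 0 without replicate 3 of DMSO or replicate 2 of probe alone, 9 and 10 without replicates 1 and 4 of DMSO, and 1 without replicate 2 of DMSO or replicate 1, 3 or 4 of probe alone. BUB1B, a component of the mitotic checkpoint complex, stood at 74.9, 75.5, 76.2 and 73.6 CPM under T-REX and at 80.8, 74.5, 78.6 and 67.3 CPM with probe alone, which overlapped it, against 89.4, 88.2, 101 and 81.3 CPM with DMSO. Its log2 difference from DMSO was -0.26 ± 0.07 under T-REX (adjusted p = 0.0142) and -0.25 ± 0.07 with probe alone (adjusted p = 0.0293). UBE2C, the ubiquitin-conjugating enzyme of the APC, had a log2 difference from DMSO of -0.22 ± 0.07 under T-REX (adjusted p = 0.0349), and its difference from DMSO with probe alone was -0.19 ± 0.07 (adjusted p = 0.0894). CCNA2 had a log2 difference from DMSO of -0.21 ± 0.06 under T-REX (adjusted p = 0.0173) and -0.17 ± 0.06 with probe alone (adjusted p = 0.0733).

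Called lower against 2 or more controls at 12 h were 2 of 40 members, FBXO5 and KIF20A, and 0.912% of all genes. That count was 0 without replicate 1 of T-REX and 1 without replicate 2 of T-REX or any of replicates 1 to 3 of light alone. The 2 calls against light alone became 0 and 1 without the same libraries, and 4 without replicate 3 of DMSO. The 5 calls against DMSO were 3 without replicate 1 or 3 of T-REX and 8 and 14 without replicates 1 and 4 of DMSO. FBXO5 against probe alone was lost without any 1 of 12 libraries, namely all those of T-REX, light alone and probe alone, and 2 members were called without replicate 3 of DMSO. Light alone at 12 h differed from DMSO and from probe alone in 0 members by edgeR, with 3 and 6 at an unadjusted p under 0.05 and 0 and 1 called by DESeq2. Without replicate 1 or 3 of DMSO or replicate 4 of light alone, edgeR called 1 between light alone and probe alone. With the RUV factors as covariates it called 1 and 7, and 15 between probe alone and DMSO, and for T-REX 20, 5 and 5 against DMSO, probe alone and light alone. Over all genes 0.0136% and 0.415% were called for light alone against DMSO and probe alone without these covariates. How many of all genes had an unadjusted p under 0.05 at 12 h is not given here. The counts of members at that p therefore cannot be read as particular to them. The members with the highest mean fold change over the controls at 12 h were NUSAP1 (0.84, 0.40 and 0.41 against DMSO, light alone and probe alone, each with an SE of 0.32 or 0.33), CDC25C, a phosphatase that activates CDK1 (0.26 ± 0.09 against DMSO, adjusted p = 0.0573) and CENPE (0.11 ± 0.06, adjusted p = 0.233).

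Many members were lower at 12 h than at 3 h, both in the mean of the controls and under T-REX. Time cannot be told apart here from anything else that differed between the harvests. The words fell and rose below name the difference between harvests only. Over the mean of the 3 controls, 33 of 40 members were lower and 0 higher at 12 h than at 3 h, with a median log2 fold change of -0.25, while 29.8% of all genes were called lower and 31.1% higher and the median of all genes was 0.00. Under T-REX, 24 members were lower and 2 higher (SMC4 and NCAPH), with a median of -0.18, against 20.6% and 21.1% of all genes. The summed level of the 40 members lay between 7367 and 8284 CPM in the 16 libraries at 12 h, below 15 of the 16 libraries at 3 h. The T-REX comparison has 4 libraries a time point and the controls 12, so the counts of calls are not of equal precision. Without replicate 1, 17 members instead of 26 were called under T-REX.

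Among the members with the largest falls were genes of the kinases, the APC and cytokinesis. In the controls from 3 to 12 h, KIF23, the midzone kinesin of centralspindlin, fell by 0.52 ± 0.03 on the log2 scale, CDC20, the APC activator that the checkpoint inhibits, by 0.50 ± 0.06, and BIRC5 (survivin, of the Aurora B complex) by 0.49 ± 0.04. AURKA fell by 0.49 ± 0.05, PLK1 by 0.45 ± 0.06 and CCNB1 by 0.45 ± 0.03. Under T-REX, UBE2C fell by 0.56 ± 0.09, PLK1 by 0.55 ± 0.10 and KIF23 by 0.47 ± 0.05. PRC1, with 32 to 90 counts per library, had a log2 fold change of -0.50 under T-REX and passed. That call was lost in 3 of 4 fits that left out 1 replicate. SMC4 and NCAPH, subunits of the condensins, rose by 0.11 ± 0.04 and 0.12 ± 0.05 under T-REX (adjusted p = 0.0329 and 0.0386). Neither passed with RLE size factors, and each was lost in 3 of 4 fits that left out 1 replicate. NCAPH did not pass with DESeq2 either. The mean level of KIF23 went from 135 ± 11.1 CPM (SD, n = 4) to 97.7 ± 4.10 CPM under T-REX and from 148 ± 4.33 to 105 ± 3.52 CPM with DMSO. All 5 mitotic kinases and partners, all 5 checkpoint genes, all 4 APC genes, all 3 kinetochore genes and all 3 spindle genes were called lower in the controls, with medians of -0.45, -0.23, -0.31, -0.35 and -0.28. The call of the spindle gene NUSAP1, with 8 to 98 counts per library, was lost in 3 of 4 fits that left out 1 replicate. Of the chromosome structure genes 4 of 7 were called lower (median -0.11). The condensin genes SMC4, NCAPH and NCAPD2 did not pass in the controls (0.06, -0.03 and 0.00), and neither did the CDK1 phosphatases CDC25B and CDC25C (0.04 and 0.00).

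KIF20A was higher at 6 h than at 3 h. It rose from 3 to 6 h by 0.25 ± 0.03 in the controls (adjusted p = 1.12e-08) and by 0.36 ± 0.06 under T-REX (adjusted p = 3.23e-06) and had -0.01 ± 0.03 and 0.01 ± 0.06 at 12 h against 3 h (adjusted p = 0.710 and 0.884). From 3 to 6 h in the controls, 18 members were called lower and 2 higher (KIF20A and SMC4), where 20.0% and 21.5% of all genes were called lower and higher. Under T-REX 5 were called lower and 3 higher (KIF20A, TOP2A and SMC4), against 9.8% and 13.5%. The count of 8 under T-REX was 5, 5 and 4 without replicates 1, 2 and 3. CDC20 fell by 0.28 ± 0.06 in the controls and by 0.37 ± 0.10 under T-REX, KIF23 by 0.25 ± 0.03 and AURKA by 0.23 ± 0.05 in the controls, and UBE2C by 0.36 ± 0.09 under T-REX. TOP2A rose by 0.21 ± 0.06 under T-REX (adjusted p = 0.00520), from 576 ± 43.4 to 667 ± 45.3 CPM (SD, n = 4), and had 0.06 ± 0.03 in the controls (adjusted p = 0.155). For SMC4, 25.6% of exon bases in GENCODE 29 lie under genes of the opposite strand, and the authors' strand setting is not given in the sources used here.

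**Figure D4:**
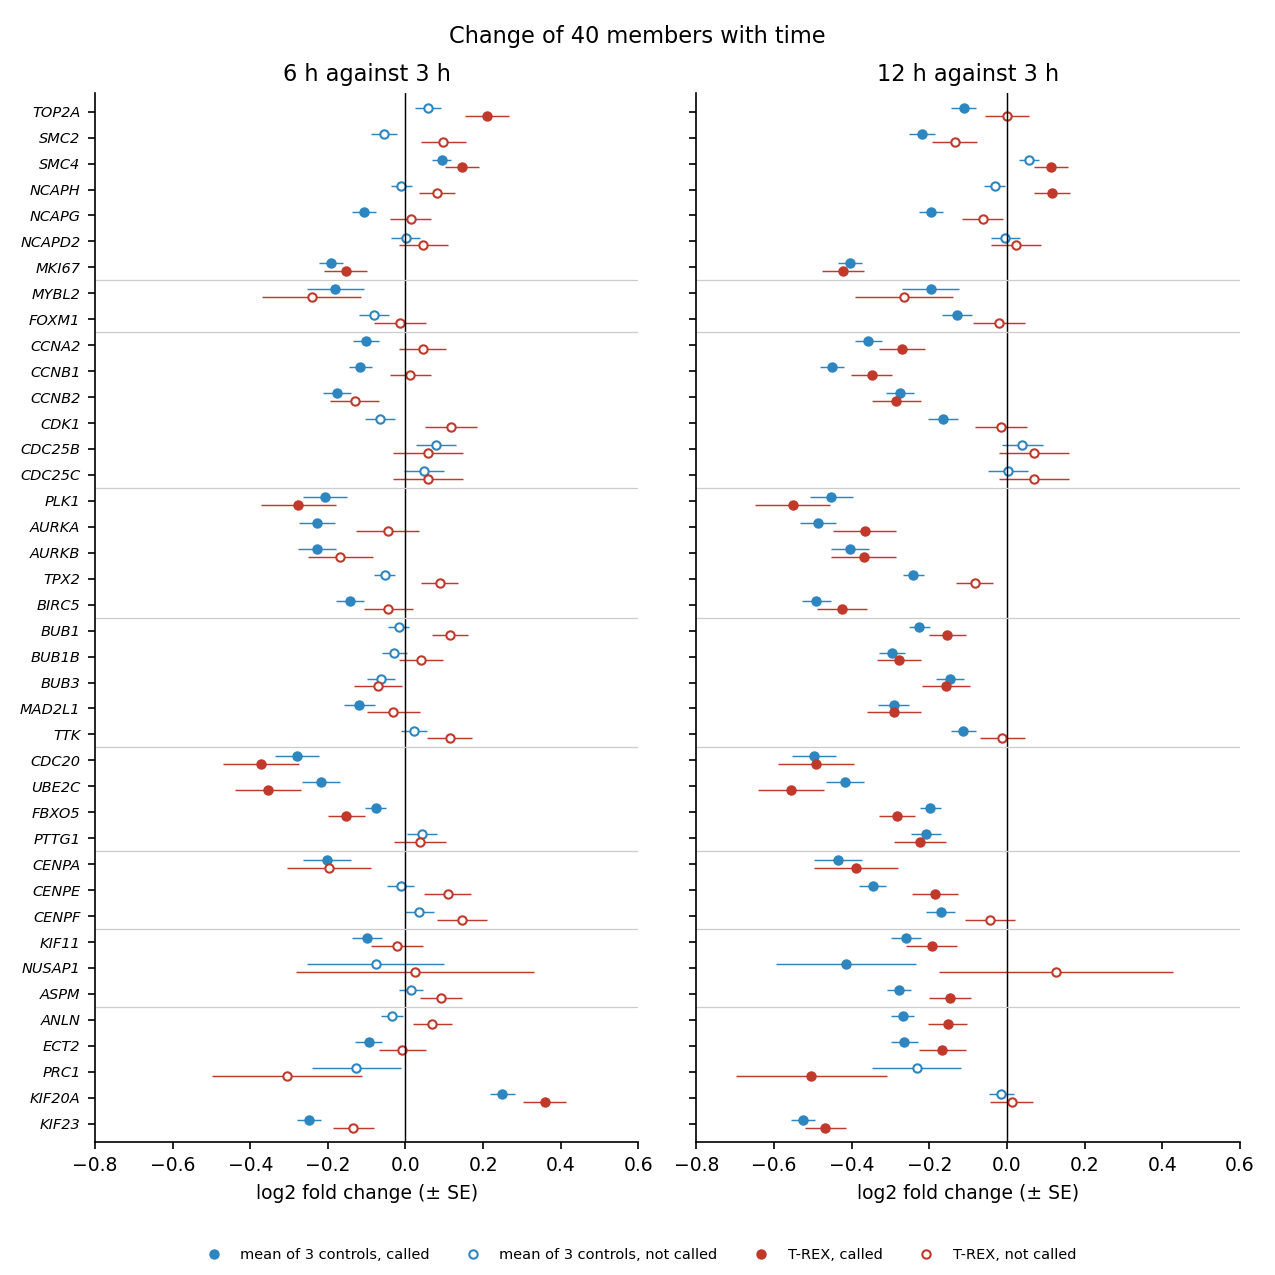
log2 fold change from 3 h to 6 h and from 3 h to 12 h for the 40 members, for the mean of the 3 control arms and for T-REX. Bars are SE of the fit and filled points passed the test; at 12 h, 33 of 40 members in the controls and 24 of 40 under T-REX are filled and left of 0.

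Whether the T-REX difference changed with time was tested as an interaction, T-REX minus the mean of the 3 controls at the later time against 3 h. By edgeR 0 of 40 members passed at 6 h and 0 at 12 h, with 7 and 5 members at an unadjusted p under 0.05 and 0 and 0 called by DESeq2. Over all genes 0.0% and 0.116% were called by edgeR. How many of all genes had an unadjusted p under 0.05 in the interaction is not given here. The members' median was 0.08 at 6 h and 0.07 at 12 h, and 9 of 40 members lay below 0 at each. The largest positive values at 6 h were those of CDK1 (0.18 ± 0.08), AURKA (0.18 ± 0.09) and TOP2A (0.15 ± 0.07), with adjusted p of 0.608, 0.680 and 0.608. The lowest were those of PRC1, UBE2C and CDC20 (-0.18, -0.14 and -0.09). At 12 h, NUSAP1 had 0.54 ± 0.35, CENPE 0.16 ± 0.07 and TPX2, the activator of Aurora A, 0.16 ± 0.05, with adjusted p of 0.604, 0.360 and 0.235. PRC1, UBE2C and PLK1 were lowest (-0.27, -0.14 and -0.10). FBXO5 had -0.08 ± 0.05 and -0.09 ± 0.05 at 6 and 12 h (adjusted p of 0.766 and 0.588), so no change of its T-REX difference with time was detected.

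Of 72 other mitosis genes that are not members, 0, 1 and 7 were called lower and none higher against light alone, probe alone and DMSO at 3 h, with medians of -0.03, -0.05 and -0.05. Of 52 genes of G1/S and DNA replication, 0, 1 and 3 were called lower and none higher, with medians of -0.01, 0.01 and 0.03. DESeq2 was not tabulated for these lists. Against light alone, 15 of the 72, 10 of the 52 and 2174 of all 14685 genes had an unadjusted p under 0.05 in edgeR. From 3 to 12 h in the controls, 54 of the 72 mitosis genes were lower and 4 higher (median -0.23), while of the 52 G1/S genes 21 were lower and 14 higher (median -0.06). The summed level of the G1/S list ran from 6160 to 6577 CPM at 3 h and from 5920 to 6492 CPM at 12 h, and that of the 72 mitosis genes from 6228 to 7127 CPM at 3 h and from 5924 to 6353 CPM at 12 h. Both pairs of ranges overlapped.

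Per length, the members spanned a wide range. Divided by the merged exon length of GENCODE 29, the median over the 48 libraries was highest for SMC4 (101 CPM per kb), TOP2A (99.3), MKI67 (84.7, the proliferation antigen that coats mitotic chromosomes) and CCNA2 (73.7). It was lowest for PRC1 (0.412 CPM per kb) and NUSAP1 (0.640), followed by the centromeric histone CENPA (5.94). PRC1, which bundles microtubules at the midzone, and NUSAP1, a spindle protein, had 32 to 90 and 8 to 98 counts per library, while every other member had at least 228. A gene of the same strand, AC068831.7, covers 57.6% of the exon bases of PRC1, and AC087721.2 covers 62.2% of those of NUSAP1. AC068831.7 had 668 to 1315 counts per library, and AC087721.2 was not analysed here. No other member had more than 10.2% under a gene of its own strand. How reads shared by such genes were counted is not given in the sources used here, and the part of this overlap in the low counts was not tested. The fold changes of PRC1 (0.26 ± 0.19 against DMSO, 0.37 ± 0.19 against probe alone and 0.40 ± 0.19 against light alone at 3 h) and of NUSAP1 are uncertain. For neither did a comparison of T-REX with a control pass. Between 3 and 12 h, PRC1 was called lower under T-REX and NUSAP1 in the controls.

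Many members have letters of the NF-Y and CHR motifs before a start. These motifs are known for genes of this class, as stated above. Their frequency here therefore describes the choice of genes and is not independent of it. Of the 40, 33 have an entry in the RefSeq promoter table (46 starts). In the 120 bases before a start, CHR letters occurred in 28 of 46 member entries (60.9%) against 13.7% of 35116 entries of all genes, and 2 or more CCAAT boxes in 16 of 46 (34.8%) against 4.55%. Both motifs together occurred in 22 of 46 (47.8%) against 2.95%. The CCAAT boxes lay at a median of 68 bases and the CHR letters at a median of 38 bases before the start. For the other genes called lower against 2 controls at 3 h, and for CDK1, the 30 bases around the CHR letters nearest to the start are shown, with capitals as above and coordinates of GRCh38.p14.
KIF20A, chr5:138179059-138179088, plus strand: cgcagcgcgtaaTTTAAAatattgtatctg
CCNB1, chr5:69167108-69167137, plus strand: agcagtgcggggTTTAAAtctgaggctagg
CCNA2, chr4:121823894-121823923, minus strand: agtcgcgggataCTTGAActgcaagaacag
TOP2A, chr17:40417897-40417926, minus strand: gctaaaggaaggTTCAAGtggagctctcct
ANLN, chr7:36389830-36389859, plus strand: ctgaaaTTCAAATTTGAAcggctgcagagg
CDK1, chr10:60778453-60778482, plus strand: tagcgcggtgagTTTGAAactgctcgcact
KIF20A, CCNB1 and TOP2A had 2 CCAAT boxes in the 120-base window, CCNA2 had 1 and ANLN had none. The start of CDK1 shown here had 2 as well. The searched letters also stand before CDC20 and PLK1, which passed no comparison of T-REX with a control. MYBL2 had neither motif in its window. BUB3, TTK, UBE2C, BIRC5, FOXM1, AURKA and TPX2 had no entry.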

How the data were processed

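RNA of HEK293T cells expressing NCBP1-Halo was measured in 48 libraries, 4 replicates of 4 arms at 3 time points. Ribosomal RNA was depleted and libraries were stranded and sequenced as read pairs. The authors deposited raw counts per gene, 1 table per time point, and scores per library for 2 factors of unwanted variation (RUV). The study's reporting summary names cutadapt, TopHat and Cufflinks for its RNA-seq. The tool that made the raw counts, the genome build, the strand setting and the RUV method are not given in the sources used here. The log2 CPM and RUV-transformed tables were not used, and splicing was not analysed here. Total counts (23952455 to 37099535) set the precision, and CPM is on TMM-scaled totals.

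Counts were tested with edgeR 4.0.16 in R 4.3.3 (filterByExpr with a minimum count of 10, TMM, robust quasi-likelihood F-test), with the 16 libraries of a time point in 1 fit and all 48 for changes with time. Percentages lower were computed from fitted fold changes. A gene was called at an adjusted p of at most 0.05 (Benjamini-Hochberg over all genes of a comparison). The study describes the 4 replicates of each set as independent biological ones. The comparisons with T-REX at 1 time point share its libraries. The members and lists were chosen with earlier results of these data known. Genes named were those called lower or higher against 2 or more of 3 controls, the 3 highest and 3 lowest members per time point and time comparison, MYBL2, and 1 member of each role. Others named were chosen after their values were seen. Alternatives were DESeq2 1.42.0, RLE size factors, no filter, a replicate block, RUV factors as covariates, only the 2 arms compared, and each library left out. The test was run on simulated data first. Promoter sequences are from RefSeq (GRCh38.p14) and exon lengths from GENCODE 29.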

Additional observations from a re-analysis of the deposited data

Results flagged for a closer look

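Of 84 sets of 4 libraries checked for 1 library far from the other 3 (7 levels in 12 groups), 4 were past Dixon's 95% critical value for 4 samples, where chance flags about 1 in 20. The summed level of the 40 members was 7809 CPM in replicate 4 of T-REX at 3 h, against 8670, 8696 and 8792 CPM in the others. TOP2A was at 769 CPM in replicate 2 of light alone at 6 h, against 670, 681 and 686 CPM. CCNA2 was at 213 CPM in replicate 3 of DMSO at 3 h, against 239, 239 and 242 CPM. CCNB1 was at 166 CPM in replicate 3 of DMSO at 6 h, against 171 CPM in each of the others.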

How the results depend on the processing

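No value changed direction past the threshold under any alternative run, and RLE size factors and no filter on low counts changed no count of members by over 1.5 times. By DESeq2, T-REX was called against light alone in 1 member at 3 h and 2 at 6 h, against probe alone in 12 at 3 h, and against 2 or more controls in 11 at 3 h. DESeq2 also separated light alone from probe alone in 1 member at 3 h and 1 at 12 h, and 5 between probe alone and DMSO at 12 h. With the authors' RUV factors as covariates, the calls under T-REX (light alone first, then probe alone, then DMSO) were 8, 22 and 25 members at 3 h, 9, 4 and 3 at 6 h, and 5, 5 and 20 at 12 h, and against 2 or more controls 20, 3 and 5. In that fit light alone against DMSO gave 7, 9 and 1, light alone against probe alone 13, 2 and 7, and probe alone against DMSO 1 at 6 h and 15 at 12 h. The share of all genes called in that fit is not given here. With only the 2 arms compared, T-REX gave 0 against probe alone, 3 against DMSO and 0 against 2 or more controls at 3 h. It gave at 12 h 2 against DMSO, 2 against probe alone and 5 against light alone, while probe alone against DMSO gave 0 and light alone against probe alone 5 at 12 h. The cause was not tested for these.

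Leaving out 1 library at a time gave 0 to 8, 0 to 1 and 0 to 3 members called against 2 or more controls at 3, 6 and 12 h. T-REX against light alone ranged over 0 to 1, 0 to 1 and 0 to 4, against probe alone over 0 to 9, 0 to 1 and 0 to 2, and against DMSO over 3 to 17 at 3 h and 3 to 14 at 12 h. Light alone against probe alone ranged over 0 to 1 at 3 h and at 12 h, and probe alone against DMSO over 0 to 10 at 12 h. The members' median at 12 h ranged from -0.0600 to -0.00978 for T-REX against probe alone and from -0.0601 to -0.0133 for probe alone against DMSO. From 3 h, T-REX gave 4 to 8 members at 6 h and 17 to 25 at 12 h.

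Same-numbered libraries of different arms did not deviate together consistently (median correlation 0.0417, -0.0145 and -0.00285 at 3, 6 and 12 h). Of 24 pairs at each time, 11, 9 and 3 were over 0.1. At 3 h the correlations ran from -0.533 to 0.518, and the median for other numbers was -0.0227. The numbers were therefore not taken to pair the samples. With replicate number as a block, T-REX against probe alone and against 2 or more controls at 6 h each gave 0 members (FBXO5 against probe alone, adjusted p = 0.0542), and no other count moved by over 1.5 times.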
